A study of Drosophila melanogaster with 8 samples.

Results

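The regions described here are those at which dFOXO ChIP tags exceeded scaled input tags in flies whose insulin-producing cells (IPCs) had been ablated. The deposited IPC list names 763 distinct regions, of 2094 regions in both lists of the study, and pairs them with 1012 genes. Each region was taken once, and its pooled ChIP tags were compared with its pooled input tags, which the authors had scaled to the ChIP library separately for each chromosome arm. The flies were *Drosophila melanogaster* adult females aged 15 days, from a cross of *Dilp2-GS-Gal4* to *UAS-rpr*. In this cross RU486 in the food, given for 15 days, induces the cell death gene *reaper* in the cells that express the *Dilp2* driver, and the ablation is partial. Chromatin came from whole flies, 200 to 250 of them per sample, with 2 samples of ChIP DNA and 2 of input DNA. The other list of the study, with 1331 regions, is from *chico* heterozygotes, and no ChIP DNA of flies with intact IPCs and 2 wild-type copies of *chico* was analysed here. Whether the IPCs were lost cannot be read from ChIP tags.

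The IPCs are neurosecretory cells of the brain that release insulin-like peptides into the hemolymph. Where insulin signaling is high, Akt phosphorylates dFOXO, the only FOXO transcription factor of the fly, and holds it in the cytoplasm. Where it is low, dFOXO enters the nucleus and binds regulatory DNA of genes for translation control, metabolism and growth, of which *Thor* (*4ebp*), a repressor of cap-dependent translation, is the best known.

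The study designed PCR primers to measure ChIP DNA at single genes (ChIP-PCR). With this assay the paper reports significant dFOXO enrichment over wild type at every selected candidate gene in both of its genotypes. *Thor*, *daw* and *wit* are among those candidates. The ChIP-PCR measurements are separate from the tags described here. The pairs for the named genes of the insulin and TGF-β lists are shown, since the results for both pathways turn on these genes. All letters are in lower case because no motif is marked. Where the primers fall in the listed regions was not determined here.
*Thor* (2L), forward: gattggcgtttagtgctgttggct
*Thor* (2L), reverse: gcttctcgccttgagctcttgttt
*daw* (2L), forward: tcattaagtccagtgcagtgcgga
*daw* (2L), reverse: tcaggaagcagggcttggattgta
*wit* (3L), forward: atttacgaagctgcgtggaatggc
*wit* (3L), reverse: tcgctacgatgccttgctctcttt

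dFOXO ChIP tags exceeded scaled input tags by little at nearly every region. The ratio of ChIP to scaled input tags had a median of 1.02, with quartiles of 1.01 and 1.04 and a range of 1.00 to 1.28. It reached 1.1 at 15 regions and was under 1.02 at 374 regions (49.0%). ChIP tags were above scaled input tags at 763 of 763 regions, but the authors chose the regions on these same tags. The direction was thus fixed by that choice. The regions held from 523 to 34623 ChIP tags (median 1980) and from 500 to 34081 scaled input tags (median 1922). Tag numbers followed the width of the region, with a Spearman correlation of 0.991 between ChIP tags and width and 0.999 between ChIP and input tags over the 763 regions, which share the same libraries. Per kb, the regions held a median of 301 ChIP tags, with quartiles of 282 and 322.

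ChIP and input tags of each region were set against equal shares by an exact binomial test (one-sided), and p-values were adjusted over all regions by the Benjamini-Hochberg method. At an adjusted p of 0.01 or less, 5 regions passed (0.655%), with 12 of 1012 genes (1.19%). At an adjusted p of 0.05 or less, 12 regions passed. The unadjusted p was under 0.05 at 113 regions (14.8%), with 157 genes (15.5%), and the 95% exact binomial interval of the ratio lay above 1 at 73 regions (9.57%). Because the authors pooled the replicates, these tests and intervals cover counting error alone, compare pooled libraries rather than conditions, and hold no spread between flies. Tags amplified by PCR are not independent molecules, so they are too narrow in that respect also. In another respect they are too wide. Input tags, scaled by arm factors from 0.678 (2R) to 0.752 (3R), entered as counts, although more input tags had been counted.

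**Figure D1:**
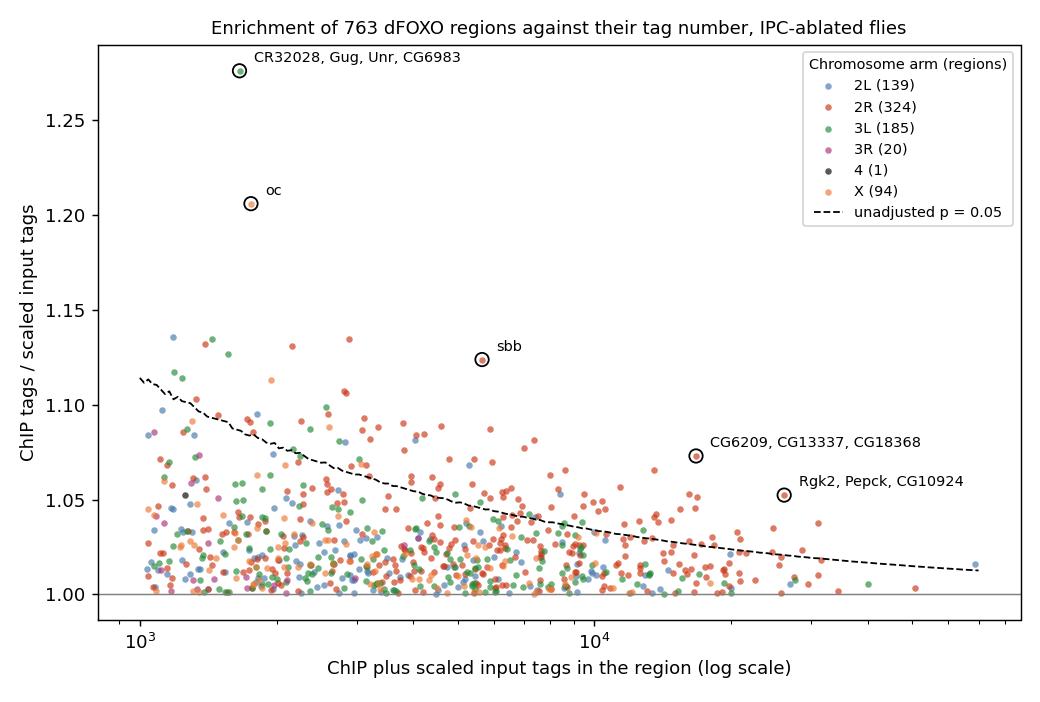
Ratio of ChIP to scaled input tags (vertical axis) against the sum of both (horizontal axis, log scale) for each of the 763 regions, 1 point per region, coloured by chromosome arm. The dashed line marks an exact one-sided binomial p of 0.05, and the 5 circled regions had an adjusted p of 0.01 or less, with ratios from 1.05 to 1.28.

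The highest ratio was on 3L, at a region 2689 bp wide (chr3L:8433264-8435952) that covers the 5' end of *CR32028*. It held 929 ChIP tags against 728 scaled input tags, a ratio of 1.28 (95% exact interval 1.16 to 1.41, adjusted exact p = 0.000332). The lower bound of this interval was above the ratio of every other region on the arm. The list also pairs this region with *Gug*, *Unr* and *CG6983*. *Gug* encodes the fly Atrophin, a transcriptional corepressor, and its listed distance is 7949 bp, a value that the authors count from a position inside the region. *Unr* encodes an RNA-binding protein that represses translation of *msl-2* in female flies, and its listed distance is 3681 bp. In RefSeq the name *CR32028* is a synonym of *Unr*, so that both entries may be one gene.

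The next passing region by ratio was on X and covers the 5' end of *oc* (orthodenticle), a homeobox gene of head and photoreceptor development. The region (chrX:8544241-8546358) held 960 ChIP tags and 796 scaled input tags, a ratio of 1.21 (exact interval 1.10 to 1.33, adjusted exact p = 0.00757). It lies at the start of the gene, with 2118 bp in all. A *chico* region inside it had a ratio of 1.11, also with ChIP above input.

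The other 3 passing regions were on 2R, and 2 of them were far wider. At *sbb* (scribbler), a gene for a nuclear corepressor that acts in photoreceptor axon targeting and larval locomotion, the region (chr2R:14238211-14245918) held 2995 ChIP and 2665 scaled input tags, a ratio of 1.12 (exact interval 1.07 to 1.18, adjusted exact p = 0.00155). At *CG6209*, *CG13337* and *CG18368* a region of 31077 bp held 8660 ChIP and 8071 scaled input tags, a ratio of 1.07 (exact interval 1.04 to 1.11, adjusted exact p = 0.00104). It covers the 5' ends of all 3 genes. At *Rgk2*, *Pepck* and *CG10924* a region of 39481 bp held 13409 ChIP and 12742 scaled input tags, a ratio of 1.05 (exact interval 1.03 to 1.08, adjusted exact p = 0.00364). *Pepck* encodes phosphoenolpyruvate carboxykinase, which commits carbon to gluconeogenesis, *CG10924* is its neighbour and is named *Pepck2* in RefSeq, and *Rgk2* encodes a small GTPase of the RGK family. Their 5' ends all lie inside the region, so the tags cannot be assigned to one of them.

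The scaling of the input bore on these calls. The region at *CR32028* passed under the summed tags of its arm as the expected share (adjusted exact p = 0.00205) and under 1 median scaling factor for every arm (0.00064), a setting chosen after seeing the data. The region at *oc* had adjusted exact p-values of 0.0808 and 0.00418 under these settings. The 3 passing regions on 2R passed under neither, with adjusted exact p from 0.0844 to 0.827 with the arm totals and from 0.391 to 0.781 with the median factor.

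At an adjusted p of 0.05 or less, 7 further regions passed, all of them on 2R. Of their genes, *CG18375*, *dpr13* and *Act57B* came under the naming rule, and the rest were picked with their values in view. The lowest adjusted p among them was at *Act57B*, an actin gene of muscle, with 6981 ChIP and 6550 scaled input tags (ratio 1.07, adjusted exact p = 0.0139). At *kn* (knot), which encodes a COE-family transcription factor of blood, muscle and neuron identity, the ratio was 1.05 (8610 against 8188 tags, adjusted exact p = 0.0424). The region of *Psi*, *CG6426*, *Ef1beta* and *CG8910* held 15825 against 15254 tags, with a ratio of 1.04 and the same adjusted p. The others were at *CG18375*, *CG8746*, *dpr13* and *CG11961*, with ratios of 1.05 to 1.13. With the arm totals as the expected share these 7 had adjusted exact p from 0.571 to 0.827, and with the median factor from 0.534 to 0.870, so that none passed under either. With the median factor the ratio at *Psi* fell to 0.996.

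The regions were spread unequally over the chromosome arms. The right arm of chromosome 2 held 324 of them (42.5%), 3L held 185, 2L 139, X 94, 3R 20 (2.62%) and chromosome 4 a single region. The *chico* list had its largest number on the arm where the IPC list was sparsest, with 399 *chico* regions on 3R and 243 on 2R. By length, the IPC regions of 2R covered 4.13 Mb, those of 3L 1.59 Mb, those of 2L 1.23 Mb, those of X 0.657 Mb and those of 3R 0.0578 Mb. Regions on 2R were also wider, with a median of 8768 bp against 2328 bp on 3R. Of the protein-coding genes in RefSeq, 15.8% on 2R and 0.677% on 3R were in the IPC list, against 6.84% of all 13951.

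The factor by which the input had been multiplied differed between arms in the reverse order at both ends. It was lowest on 2R (0.678) and highest on 3R (0.752), with 0.701 on 3L, 0.706 on 2L and 0.719 on X. The median factor of 0.706 was also put on every arm, a setting chosen after seeing the data. ChIP tags would then exceed input at 91 of the 324 listed regions on 2R, at 139 of 185 on 3L and at every listed region of the other 3 arms. The median ratio of the listed regions would be 0.985 on 2R and 1.08 on 3R, in place of 1.03 and 1.01. On the other 3 arms the count was fixed in advance, because their own factors are not below the median and only ratios above 1 were listed. Regions outside the list could not be counted, so the number of regions on 3R or X under 1 factor is not known. Which factor is closer to the true ratio of the libraries was not tested, so the difference in numbers between arms cannot be told apart from the scaling. The unadjusted p was under 0.05 at 83 regions of 2R (25.6%), 18 of 3L (9.73%), 8 of 2L (5.76%), 4 of X (4.26%) and 0 of 3R.

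**Figure D2:**
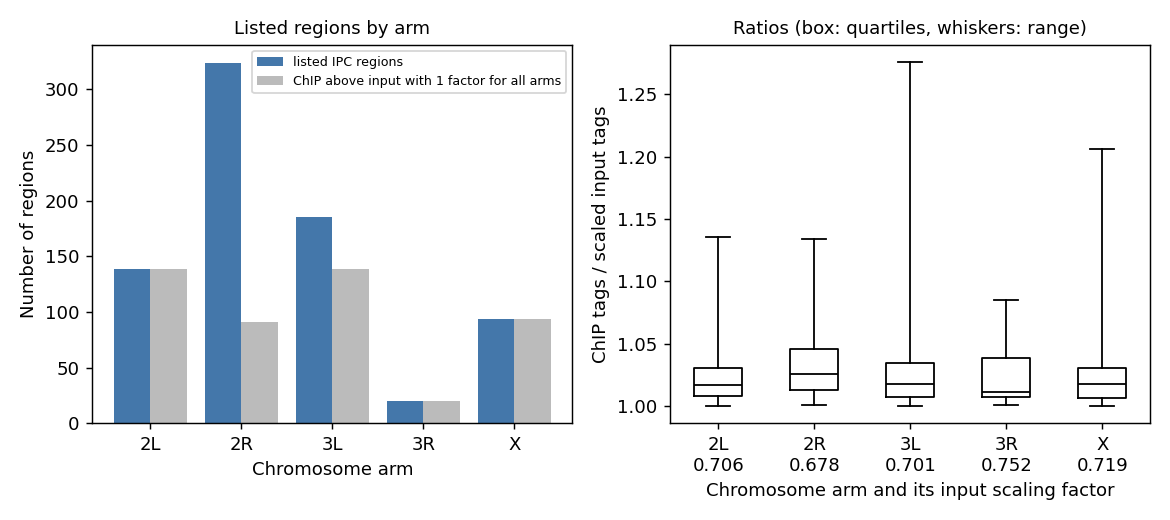
Left, number of listed regions per chromosome arm (blue) and number of these same regions whose ChIP tags would exceed input with the median scaling factor on every arm (grey), which is 91 of 324 on 2R. Regions outside the list are not counted, so grey cannot exceed blue. Right, ratio of ChIP to scaled input tags per arm (line, median; box, quartiles; whiskers, range), with the input factor of the arm under its name, from 0.678 on 2R to 0.752 on 3R.

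Since the scaling was made per arm, regions were ranked within each arm. On 2L the highest ratio was at *Ddr*, the gene for a receptor tyrosine kinase of the discoidin domain family, with 628 ChIP against 553 scaled input tags (1.14, exact interval 1.01 to 1.28, unadjusted exact p = 0.0156). The intervals of the 4 next regions on 2L all reached below 1. They were at *aret* (586 against 534 tags, 1.10), *CG42238* (944 against 862, 1.10), *chinmo* (542 against 500, 1.08) and *CG5953* (685 against 632, 1.08). *aret* encodes Bruno, a translational repressor of *oskar* mRNA, and *chinmo* a BTB zinc finger protein of temporal identity in neurons. The region at *aret* lies 5' of the gene at a listed distance of 9444 bp.

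On 2R the intervals of the first 5 regions all lay above 1, and all but that at *px* covered the 5' end of their gene. The highest ratios were at *CG18375* (1536 against 1354 tags, 1.13), *CG17048* (738 against 652, 1.13), *CG8854* (1148 against 1015, 1.13), *sbb* and *px* (1477 against 1334, 1.11). *CG18375* is named *ASPP* in RefSeq, and *px* (plexus) is required for the pattern of wing veins. The 4 regions without a call at 0.01 had adjusted exact p from 0.0408 at *CG18375* to 0.176 at *CG17048*.

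On 3L the region at *CR32028* was followed by *ome* (768 against 677 tags, 1.13), *Cpr62Bc* with *Cpr62Ba* (828 against 735, 1.13), *CG13715* (628 against 562, 1.12) and *CG32062* (653 against 586, 1.11). *ome* encodes a dipeptidyl peptidase and the *Cpr62B* genes encode cuticle proteins. *CG32062*, named *Rbfox1* in RefSeq, encodes a splicing regulator, and the region lies 5' of it at a listed distance of 5444 bp. The intervals at *ome* and *Cpr62Bc* lay above 1, while those at *CG13715* and *CG32062* reached 0.996 and 0.995.

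On X the region at *oc* was followed by *CG32635* with *CG34324* (1026 against 922 tags, 1.11), *Ste:CG33236* (679 against 622, 1.09), *unc-4* (1357 against 1247, 1.09) and *Yp2* (1586 against 1484, 1.07). *CG32635* is named *Neto* in RefSeq, a partner of glutamate receptors at the neuromuscular junction. *unc-4* encodes a homeobox protein of neurons, and *Yp2* a yolk protein of the female fat body and ovary. *Ste:CG33236* belongs to the Stellate genes, which are near-identical repeats, so its tags may come from other copies.

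On 3R every interval among the first 5 included 1. The ratios were 1.09 at *CG31163* (559 against 515 tags), 1.07 at *sqz*, *CG11779* and *CG42358* (700 against 652), 1.06 at *CG13408*, *CG5778* and *how* (668 against 631), 1.05 at *DopR* (762 against 725) and 1.04 at *klg* (553 against 531). *sqz* encodes a zinc finger protein of neuron identity, *how* an RNA-binding protein of muscle and tendon cells, *DopR* a dopamine receptor and *klg* an adhesion protein of the immunoglobulin family. The region on chromosome 4, in *Syt7*, a synaptotagmin gene, held 644 against 612 tags (1.05, exact interval 0.941 to 1.18).

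**Figure D3:**
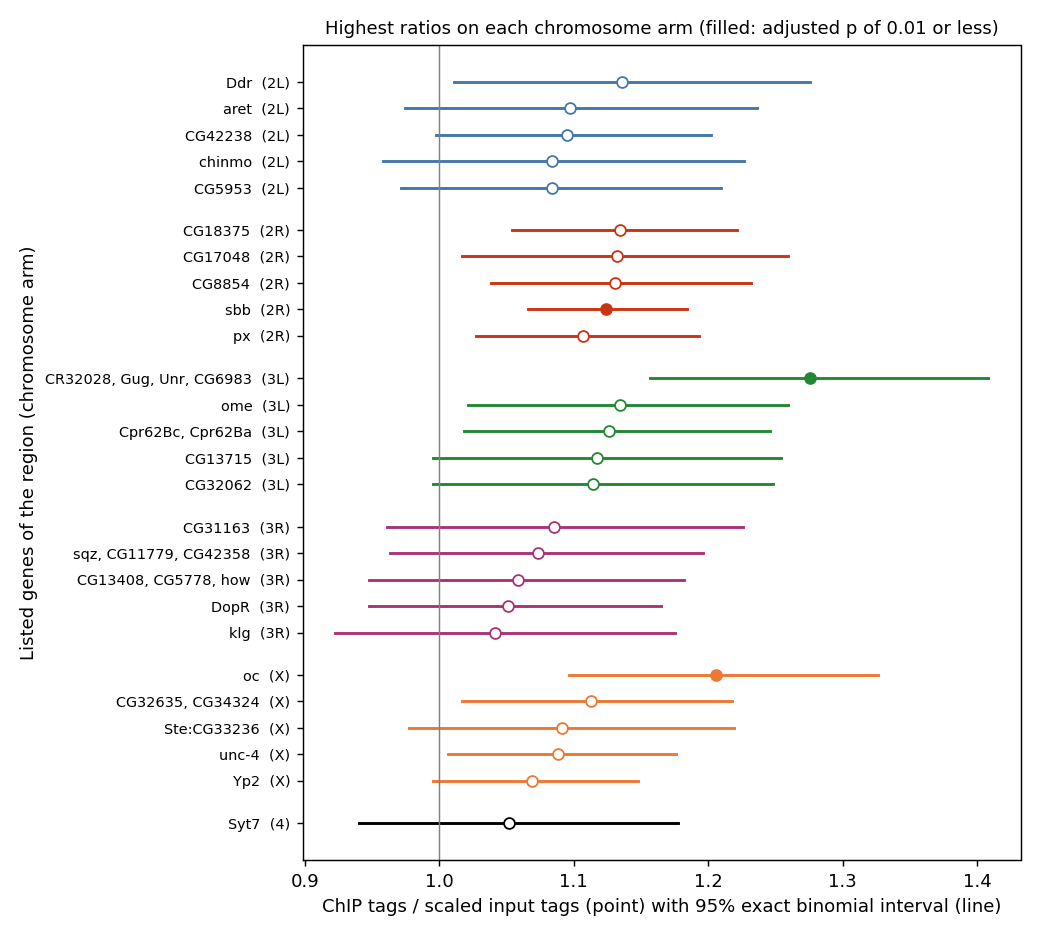
Ratio of ChIP to scaled input tags (points) with 95% exact binomial intervals (lines) for the 5 regions of highest ratio on each of 5 chromosome arms and the single region on chromosome 4. Filled points had an adjusted p of 0.01 or less, and all intervals on 3R include 1.

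At the other end of the ranking, ChIP and scaled input tags were equal but for 1 tag. The lowest ratios were at *CG18482* on 2L (2243 against 2242 tags), *Cda9*, a chitin deacetylase gene, on 2R (1850 against 1849), *CG34050* on 3L (7115 against 7114), *Mf*, the gene for the muscle protein myofilin, on 3R (1051 against 1050) and *CR32730* on X (3683 against 3682). Their unadjusted exact p was 0.50 at each. The widest region of an arm was near the median ratio or below it on 4 arms, and above the arm median on 3R. On 2L a region of 99265 bp at *fred*, a cell adhesion gene and paralog of *ed*, held 34623 against 34081 tags (1.02, unadjusted exact p = 0.0195). On 2R a region of 88669 bp at *Tsp42A* and *CG11163* held 25396 against 25311 tags, and on 3L a region of 71347 bp at *SP1173* held 20013 against 19901 tags. The widest on X, at *CG11235*, was 35421 bp (9013 against 8958 tags), and the widest on 3R, in the Hox gene *Scr*, was 6901 bp (2077 against 2017 tags, 1.03, rank 7 of 20). None of these 5 had an adjusted p of 0.05 or less.

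Along the ranking, regions became wider as the ratio became smaller. The ranks of each arm were cut into 3 equal parts, with median ratios of 1.05, 1.02 and 1.01. The median width was 4827 bp in the top part, 6792 bp in the middle and 8776.5 bp in the bottom part, and over all regions the Spearman correlation between ratio and width was -0.194. The ratio of a region with fewer tags has a larger counting error, and only ratios above 1 were listed, so high ratios at narrow regions cannot be told apart from that error by rank alone. All but 13 of the 113 regions with an unadjusted p under 0.05 were in the top part and none in the bottom part, which follows from ranking on the same tags.

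Positions relative to genes changed little along the ranking. A 5' end of a listed gene lay inside 416 of the 763 regions (54.5%), which was 52.9% in the top part, 50.4% in the middle and 60.3% in the bottom part. The first listed gene had the region 5' of it or on its 5' side for 70.8%, 63.4% and 68.7% of regions. Genes named only by a CG number made up 52.7%, 47.3% and 50% of the genes. Genes on any of the 19 function lists made up 22.5%, 22.6% and 19.7%. These lists, of ligands, receptors, transcription factors and enzymes, were written with earlier results of the study known.

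Genes of nerve wiring and of developmental patterning had the largest shares at IPC regions among the lists, with median ratios of 1.02, as over all regions. Of 136 genes of axon guidance and cell adhesion, 53 (39.0%) were at an IPC region. This was the largest share among the lists. It was followed by 30 of 87 homeobox genes (34.5%) and 36 of 107 other developmental transcription factors (33.6%). Then came 10 of 33 genes of circadian rhythm and sleep (30.3%, but 4 genes where only the first gene of each region was counted) and 9 of 36 genes of Wnt signaling (25%). The 10 genes of rhythm and sleep include *insc*, a gene of neuroblast division that was misplaced there, so the share of that list is too high. Genes of these lists are long. The median length in RefSeq was 32.0 kb for axon guidance and adhesion and 11.9 kb for homeobox genes, against 2.16 kb for all protein-coding genes and 10.4 kb for those at IPC regions, and the part of length in these shares was not tested. At the lower end were autophagy and proteostasis with 0 of 47 genes (median length 2.63 kb) and insulin and TOR signaling with 1 of 34 (6.10 kb). Chromatin and Polycomb regulators followed with 5 of 69 (7.25%, 5.675 kb) and fuel metabolism with 5 of 66 (7.58%, 3.49 kb). The last 2 shares were near the 6.84% of all protein-coding genes.

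**Figure D4:**
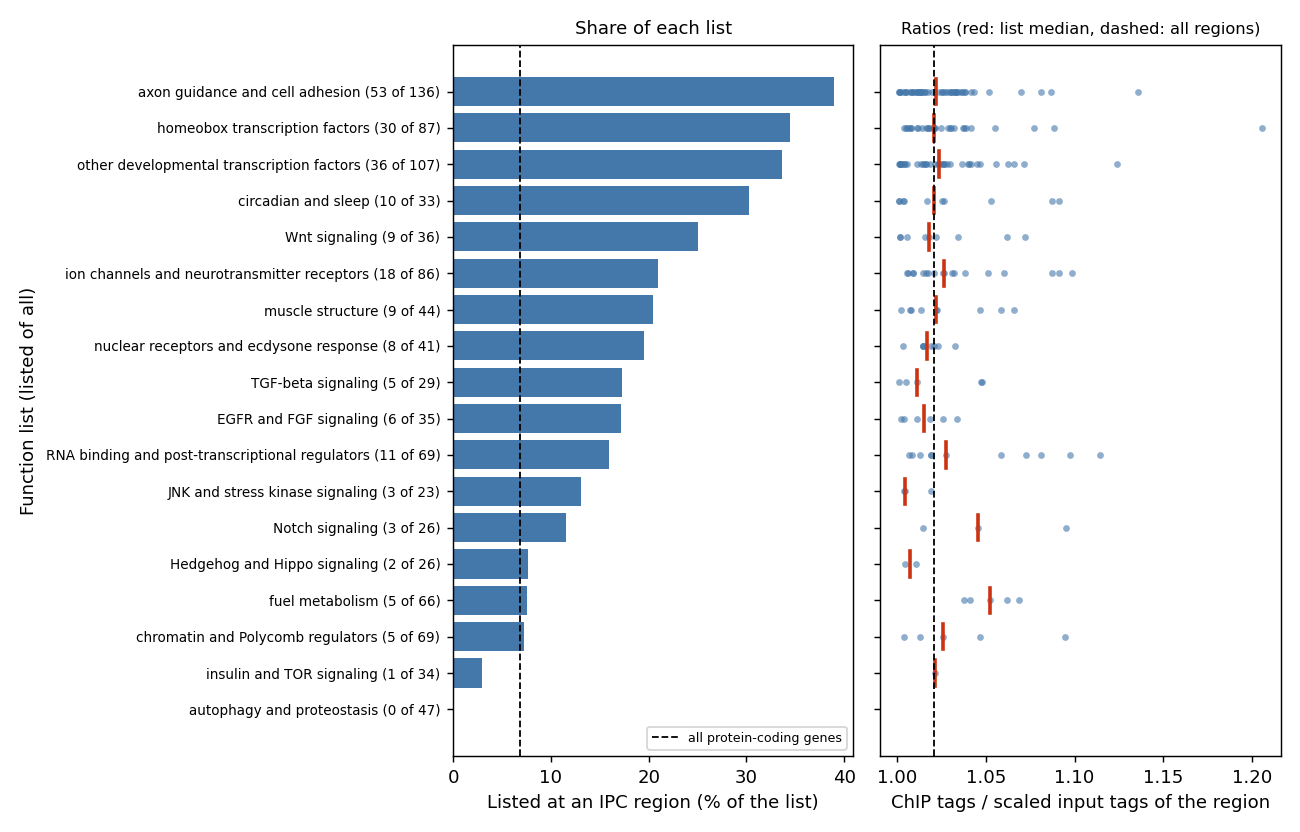
Left, share of each of 18 function lists that was at an IPC region, with the number of genes beside its name and the share of all protein-coding genes as a dashed line at 6.84%. Right, ratio of ChIP to scaled input tags of each region with a listed member (points), with the median of the list (red) and of all regions (dashed, 1.02).

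Among the genes of axon guidance and adhesion, 4 of 53 were at a region with an unadjusted p under 0.05, against 15.5% of all listed genes. The median ratio of the list was 1.02, equal to that of all regions, with members from 1.00 to 1.14. Next to *Ddr*, the highest were *dpr12* (1603 against 1475 tags, 1.09, unadjusted exact p = 0.011) and *dpr13* (3824 against 3537 tags, 1.08, adjusted exact p = 0.0408), which encode cell surface proteins of the Dpr family that bind partners on other neurons. The list held ligands and receptors of midline guidance at ratios no higher than that of *dpr13*, among them *sli*, *robo3*, *lea*, *fra*, *NetA* and *unc-5*.

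Of the homeobox genes, 6 of 30 were at a region with an unadjusted p under 0.05, against 15.5% of all listed genes, and the median ratio was 1.02. After *oc* and *unc-4* came *otp* (orthopedia), a gene of the nervous system and hindgut, with 3634 against 3373 tags (1.08, unadjusted exact p = 0.000947). Of the other developmental transcription factors 6 of 36 were at such a region, again with a median of 1.02. Next to *sbb*, the highest were *rib* (2804 against 2617 tags, 1.07, unadjusted exact p = 0.00576) and *grh* (4449 against 4175 tags, 1.07, unadjusted exact p = 0.00164). *rib* is needed for tracheal and salivary tube growth, and *grh* (grainy head) for epidermal barrier genes.

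Genes of neuronal excitability formed the next group. Of 86 ion channels and neurotransmitter receptors 18 were listed, with a median ratio of 1.03, and 3 were at a region with an unadjusted p under 0.05, a share near the 15.5% of all listed genes. The potassium channel genes *Shal* (1346 against 1225 tags, 1.10, unadjusted exact p = 0.00897) and *Shab* (660 against 607 tags, 1.09, unadjusted exact p = 0.072) and the potassium channel modulator *qvr* (sleepless; 910 against 834 tags, 1.09, unadjusted exact p = 0.0362) had the highest ratios. Their listed distances were 7736, 2835 and 9501 bp, so that none of these regions overlapped the gene it was paired with. In the circadian list, *Dh31*, a neuropeptide gene of clock neurons, followed with 4316 against 4099 tags (1.05, unadjusted exact p = 0.00927).

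Of the insulin and TOR genes, the list held *Thor* alone. Its region was 27269 bp wide and held 10065 against 9855 tags, a ratio of 1.02 (exact interval 0.993 to 1.05, unadjusted exact p = 0.0693), at rank 55 of 139 on 2L. The interval included 1, so an excess of ChIP tags was not detected over this wide region, and the reason was not tested. The *chico* region that overlaps it, also at *Thor*, had a ratio of 1.25 (unadjusted exact binomial p = 3.67e-05). The levels of the 2 lists were not compared. In the fuel metabolism list all 5 listed genes were in the top part of their arm, where 334 of the 1012 listed genes were, and 2 were at a region with an unadjusted p under 0.05 (15.5% of all listed genes were). Counted by the first gene of each region, 3 of the 5 were left. All 5 listed genes, in order of ratio, were *Yp2*, *l(2)44DEa*, *Pepck*, *Pfk* and *Yp1*. *l(2)44DEa* (named *Acsl* in RefSeq) encodes an acyl-CoA synthetase (718 against 676 tags, 1.06). *Pfk*, the gene of the committed step of glycolysis, had 841 against 808 tags (1.04), and *Yp1* had 1220 against 1176 tags (1.04). Of the 5, *Pepck* alone was at a passing region. *Yp1* and *Yp2* are neighbours with separate regions. The share in the top part depends on which genes the list held. It counted these yolk protein genes but not the enzyme genes *Idh*, *Menl-1* and *CG10924*, which were also at IPC regions. *Idh* had a ratio of 1.02 on 3L, where the arm median was 1.02. *Menl-1* had a ratio of 1.02 on 2R, where the arm median was 1.03.

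The TGF-β list had 5 of 29 genes at IPC regions, all with intervals that included 1. This list is not complete for the pathway. The related genes *Fs* (3601 against 3501 tags, 1.03) and *Snoo* (1072 against 1020 tags, 1.05) were at IPC regions but not among its members. Both are outside the naming rule. Within a listed distance of 5000 bp the number was 2, without *daw*, and by the first gene of each region it was 3. The region paired with the Activin-like ligand gene *daw*, at a listed distance of 6808 bp, lies inside *Syt1*, a synaptotagmin gene, on its 5' side. It held 661 against 631 tags (1.05, exact interval 0.938 to 1.17, unadjusted exact p = 0.21). The region was at rank 15 of 139 on 2L. The receptor gene *wit*, a type II receptor of motor neurons, had 6623 against 6551 tags (1.01, exact interval 0.977 to 1.05). *shn*, which encodes a zinc finger cofactor of Smads, had 1171 against 1118 tags (1.05, exact interval 0.964 to 1.14). *dally*, for a heparan sulfate proteoglycan that binds BMP ligands, and *CG2264* (*magu* in RefSeq), for a secreted modulator, had 1641 against 1633 and 9559 against 9548 tags, with ratios of 1.00. None of the 5 was called, and the excess at the region of *Syt1* and *daw* cannot be told apart from counting error.

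The other signaling lists are given beside the 15.5% of all listed genes that were at a region with an unadjusted p under 0.05. Of 9 Wnt genes none was at such a region, and the highest ratios were at *Notum*, a secreted Wnt deacylase gene (683 against 637 tags, 1.07), *nmo*, for a kinase (582 against 548, 1.06), and the receptor gene *fz* (2052 against 1984, 1.03). Of 3 Notch genes *mam* (mastermind), the coactivator, was at such a region (1356 against 1238 tags, 1.10, unadjusted exact p = 0.0108), while the protease gene *kuz* (598 against 572, 1.05) and *sca* (2346 against 2312, 1.01) were not. The 6 genes of EGFR and FGF signaling had ratios of 1.00 to 1.03, led by *edl*, for an antagonist of the repressor Yan (650 against 629 tags), the protease gene *ru* (598 against 583) and the ligand gene *vn* (1645 against 1615). The JNK pathway kinase genes *slpr* and *msn*, the pathway antagonist gene *raw* (1.00 to 1.02) and the Fat pathway genes *fj* and *ds* (1.01 and 1.00) had ratios near 1.

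The same share of 15.5% is the background for the lists that follow. Of 11 RNA-binding genes (7 within a listed distance of 5000 bp) 3 were at a region with an unadjusted p under 0.05. They were *CG32062*, *Rbp6* (1426 against 1319 tags, 1.08, unadjusted exact p = 0.0215) and *bru-3*. The last is outside the naming rule, and its unadjusted exact p rounds to 0.05. *aret*, between *CG32062* and *Rbp6* in ratio, was not at such a region. Of 5 chromatin genes (3 within 5000 bp) the Polycomb group gene *Su(z)2* (776 against 709 tags, 1.09, unadjusted exact p = 0.0434) and *psq* (3546 against 3388, 1.05, unadjusted exact p = 0.0297) were, and the insulator gene *BEAF-32* (4543 against 4430, 1.03) was not. Of 9 muscle genes *Act57B* and *stj*, a calcium channel subunit gene (4820 against 4606 tags, 1.05, unadjusted exact p = 0.0141), were, and *how* lay between them in ratio. Of 8 genes of nuclear receptors and the ecdysone response none was, with ratios up to 1.03 at *Eip63E* (4229 against 4096 tags), 1.02 at *knrl* and 1.02 at *Eip78C*.

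The *chico* libraries were separate samples, and 81 IPC regions (10.6%) had at least 1 bp in common with theirs, 53 of them on 2R. At these 81 the median ratio was 1.02 in IPC-ablated flies and 1.12 in *chico*, where regions are narrower and the input was scaled on its own, so the levels were not compared. The *chico* region had an unadjusted p under 0.05 at 10 of the 13 regions where the IPC region had one (76.9%), and at 50 of the 68 where it had not (73.5%), against 817 of all 1331 *chico* regions (61.4%). The differences between these shares were not tested. The 10 regions were at *oc*, *Oaz*, *CG11961*, *Pepck*, *Hs3st-A*, *Optix*, *Cpr49Ab*, *Rx*, *CG14470* and *Cyp9b2*, with IPC ratios from 1.02 to 1.21 and *chico* ratios from 1.09 to 1.17. These names were picked with the values in view and are those of the IPC list. At *CG11961*, *Pepck*, *Optix*, *Cpr49Ab* and *Cyp9b2* the *chico* list pairs its overlapping region of highest ratio with genes other than the one named. A shared region is thus not always a shared gene. Overlap was not more frequent at the top of the IPC ranking, with 19, 30 and 32 regions in the top, middle and bottom part, where the wider regions are.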

How the data were processed

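Reads were processed with CASAVA 1.6 and aligned with Bowtie by the authors, who pooled both replicates, called regions with PeakSeq and listed nearby genes. The paper gives an FDR of 0.01 for the regions it selected. The IPC list nevertheless holds regions with an excess of 1 tag and an unadjusted exact binomial p of 0.50, such as *Cda9*. Its listed tags thus do not show that threshold, and how it was applied to this list is not known. The genome build is not given in the sources used here. Deposited ChIP tags are raw counts per region. The authors' input tags are a score, being counts multiplied by an arm's factor and rounded up. The deposited enrichment is a ratio of ChIP tags to input before rounding, from which the factors were recovered. The deposited p-value is 0 for every IPC region, and that of the *chico* list served only to derive its number of candidate regions, 26819. Library totals were not analysed here, so depth enters only as tags per region.

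One row per region (lowest gene order) was kept. Exact one-sided binomial tests, Benjamini-Hochberg adjustment and Clopper-Pearson 95% intervals were computed with Python 3.11.15, NumPy 2.4.6, SciPy 1.17.1 and pandas 2.3.3, with figures from Matplotlib 3.10.9. The test was tested on simulated data. Genes were matched to RefSeq (Release 6) by symbol, CG number or synonym (992 of 1012), for names, chromosome arms and lengths only. Each gene is listed once, with 1 region, and 141 regions lack the gene ranked first. Members and lists were chosen with earlier results of these data known. Genes named are those of passing regions, the 5 highest, the lowest and the widest regions of each arm, the list members at the 3 highest regions of each list, and all insulin and TGF-β members. Alternatives covered input scaling, adjustment, thresholds, width and gene assignment. Motifs and region sequence were left out because no genome sequence was used. One of the function lists is not reported here.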

Additional observations from a re-analysis of the deposited data

How the results depend on the processing

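The number of passing regions, 5 as reported, depended most on the input scaling. It was 35 with input lowered by 2% and 315 with input lowered by 5%, and it was 1 and 0 with input raised by 2% and 5%. It was 1 with the arm totals as the expected share and 2 with 1 median factor for every arm, an alternative chosen after seeing the data. Other choices gave 2 with the Benjamini-Yekutieli adjustment, 0 over the *chico* number of candidate regions, 12 at an FDR of 0.05, 1 at 0.001, 2 among regions of at most 20000 bp, and 13 entries with one test per region and gene, where a region counts once per gene. It was 6 with input before scaling, 6 with adjustment within each arm and 4 with a two-sided test. The count with input before scaling is not a result without the arm factors. At *CR32028*, the region of highest ratio, unscaled input tags were 1038 against 929 ChIP tags, so no excess would remain at equal shares. The median ratio of the named regions was 1.08 as reported and 1.06 to 1.09 otherwise, and the ratio stayed above 1 at the 5 regions passing at 0.01. Of the single named ratios, 3 left their counting interval when taken relative to the arm and 4 with the median factor. Function list genes numbered 218, and 30 at regions with an unadjusted p under 0.05. They numbered 185 within 5000 bp and 191 as the first gene of a region. Overlaps with *chico* were 81 at 1 bp and 81 at 50% of the narrower region. Depth limits the calls, since an excess of a few percent lies within the interval of most regions. No paired analysis was possible because the authors pooled the replicates, and for the same reason no replicate could be left out.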
